A study of Mus musculus with 6 samples.

Results

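Transcripts of platelets and of megakaryocytes, the bone marrow cells that shed them, were followed in tissue labelled as left ventricle from male C57BL/6 mice. The ISO group (called heart failure in the labels) received subcutaneous ISO at 10 mg/kg per day for 3 weeks, and the saline group (called sham) received an equal volume of saline. The letters ISO commonly stand for isoproterenol, which activates beta-adrenergic receptors. There were 3 libraries of polyadenylated RNA per group, numbered as in the labels, and the ages of the mice are not given in the sources used here. The 10 genes were taken from the deposited table by symbol, and all 10 were found among its 21989 genes: Treml1, Pf4, Ppbp, Itga2b, Itgb3, Gp1ba, Gp9, Gp5, Gp6 and Clec1b. The set was put together knowing that Treml1 was higher in ISO, so every ISO against saline value of these 10 genes is given as a description, with no test. The libraries are given as biological repeats, but no label ties one to an animal, so all errors below measure the spread between these libraries, which may be partly technical.

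Platelets are small anucleate cells that carry RNA handed down from the megakaryocyte. They adhere through the GPIb-IX-V complex, which binds von Willebrand factor, and through the collagen receptor GPVI, and they aggregate when the integrin alpha-IIb beta-3 binds fibrinogen. Their alpha granules store chemokines and adhesion proteins that are released or exposed on activation. A left ventricle contains platelets within its blood, and in bulk tissue more cells of a type cannot be told apart from more RNA per cell.

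All 10 genes gave reads. Treml1 stood 6.20-fold higher in ISO by the ratio of group means, Gp6 3.64-fold, Clec1b 2.20-fold and Itga2b 1.81-fold, and for these 4 genes every ISO library lay above every saline library. Pf4, Gp9 and Itgb3 had ratios of 1.89, 1.57 and 1.47 with overlapping groups. Gp5 and Ppbp had ratios of 1.09 and 0.949, and in each of them saline 3 was the highest library. Gp1ba was at 0 in all 3 saline libraries and reached 0.105 FPKM at most in ISO. FPKM scales the fragments of a gene by its length and by the size of the library, and levels of different genes compare only as far as the authors' gene lengths hold.

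Recovered library totals were 5154283 to 7378782 reads in ISO and 2776152 to 9862363 reads in saline. Saline 3 had the lowest total and stood apart: across the 12269 genes with a mean of at least 1 FPKM, its Pearson r with the other libraries was 0.788 to 0.830, against 0.918 or more among the other 5. The fold changes and counts it moves most are also given without it. The ventricle label was checked against cardiac light chains: Myl2, the ventricular form, lay between 140 and 1985 FPKM in ISO and between 526 and 9101 FPKM in saline, while Myl7, the atrial form, lay between 8354 and 11551 FPKM in ISO and between 7469 and 16664 FPKM in saline. Only in saline 3 was Myl2 above Myl7, so in 5 of the 6 libraries the light chains go against the ventricle label. The libraries are called by their labels here, and the part of atrial tissue in the results was not tested.

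The promoters of 5 members are shown because 3 of these genes (Treml1, Clec1b and Itga2b) separated the groups while Pf4 and Gp5 did not. Each window holds 250 bases before and 50 after a transcription start in RefSeq on GRCm38.p6, the build family named in the submitters' processing notes. Capitals mark a match, on either strand, to a GATA motif, spelled AGATAA or else AGATAG or else TGATAA or else TGATAG, or to an ETS motif, spelled AGGAAG or else CGGAAG. The factor GATA1 and the ETS factor FLI1 are known regulators of megakaryocyte genes.
Treml1, chr17:48359666-48359965, plus strand: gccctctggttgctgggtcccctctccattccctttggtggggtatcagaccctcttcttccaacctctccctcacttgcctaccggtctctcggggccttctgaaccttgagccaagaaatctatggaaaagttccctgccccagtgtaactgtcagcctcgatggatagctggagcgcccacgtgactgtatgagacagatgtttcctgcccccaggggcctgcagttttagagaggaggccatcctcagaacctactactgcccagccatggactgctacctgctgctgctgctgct
Clec1b, chr6:129397047-129397346, plus strand: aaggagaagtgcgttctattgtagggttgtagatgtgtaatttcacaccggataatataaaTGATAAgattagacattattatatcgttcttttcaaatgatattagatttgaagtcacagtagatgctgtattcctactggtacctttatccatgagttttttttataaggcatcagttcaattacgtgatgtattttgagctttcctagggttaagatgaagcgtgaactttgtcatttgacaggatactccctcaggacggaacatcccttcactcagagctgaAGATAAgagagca
Itga2b, chr11:102469834-102470133, minus strand: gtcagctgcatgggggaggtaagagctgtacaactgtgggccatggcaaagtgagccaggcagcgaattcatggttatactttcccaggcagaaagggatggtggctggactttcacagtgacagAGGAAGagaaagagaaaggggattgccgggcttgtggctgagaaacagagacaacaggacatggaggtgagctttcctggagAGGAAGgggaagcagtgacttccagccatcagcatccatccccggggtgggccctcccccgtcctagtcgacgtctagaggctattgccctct
Pf4, chr5:90772185-90772484, plus strand: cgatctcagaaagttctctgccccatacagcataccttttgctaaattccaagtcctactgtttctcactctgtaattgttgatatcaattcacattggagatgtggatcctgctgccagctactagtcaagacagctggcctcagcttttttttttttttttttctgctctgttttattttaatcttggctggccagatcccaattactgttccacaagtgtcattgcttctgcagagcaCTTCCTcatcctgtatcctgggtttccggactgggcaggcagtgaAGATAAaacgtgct
Gp5, chr16:30310732-30311031, minus strand: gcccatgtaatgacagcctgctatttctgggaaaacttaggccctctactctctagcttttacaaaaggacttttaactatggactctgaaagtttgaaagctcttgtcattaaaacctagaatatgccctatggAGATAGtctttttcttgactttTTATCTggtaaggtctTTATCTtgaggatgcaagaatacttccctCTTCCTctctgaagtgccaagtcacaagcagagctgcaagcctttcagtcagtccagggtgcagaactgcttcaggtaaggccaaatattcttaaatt
A promoter window was found for 9 of the 10 members, all but Itgb3. The Gp9 window (chr6:87777820-87778119) lies inside the gene span given below, so its start is an internal one. A GATA motif was present in 5 of the 9 (Clec1b, Gp1ba, Gp5, Gp6 and Pf4), against 29.8% of 32851 mouse promoter windows of the same length. An ETS motif was present in 5 of the 9 (Gp1ba, Gp5, Gp9, Itga2b and Pf4), against 46.5% of the windows. Pf4, Gp1ba and Gp5 held both, as did 12.6% of all windows. Treml1 and Ppbp held neither, which says only that these letters do not occur in these windows. No motif was common to the 4 genes whose libraries separated by group: Treml1 had none, Clec1b had 2 GATA matches, Itga2b had 2 ETS matches and Gp6 had 1 GATA match.

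Treml1 encodes TLT-1, a receptor of platelet alpha granules that moves to the surface on activation and binds fibrinogen (chromosome 17, 48359916 to 48367176; gene positions here and below are those of RefSeq on GRCm38.p6). It was at 8.78, 5.59 and 7.69 FPKM in ISO 1 to 3 and at 1.62, 1.65 and 0.288 FPKM in saline 1 to 3. These values rest on 81, 36 and 54 reads in ISO and on 20, 13 and 1 reads in saline. All 3 ISO libraries were above all saline libraries, with ISO 2 the lowest of the ISO group and saline 2 the highest of the saline group. The 95% counting interval (exact Poisson) of ISO 2 ran from 3.91 to 7.74 FPKM and that of saline 2 from 0.878 to 2.82 FPKM, so these intervals did not meet either. Such intervals cover counting error only. The log2 fold change, ISO minus saline on the log2(FPKM + 1) scale, was 1.99 (SE 0.37) with limma. It ranged from 1.65 without saline 3 to 2.17 without saline 2, and it was 2.52 with limma-voom on the recovered reads. Over all 13 alternatives the lowest value was 1.47, with quality weights and saline 3 left out, and the highest was 2.80, with a pseudocount of 0.1.

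**Figure D1:**
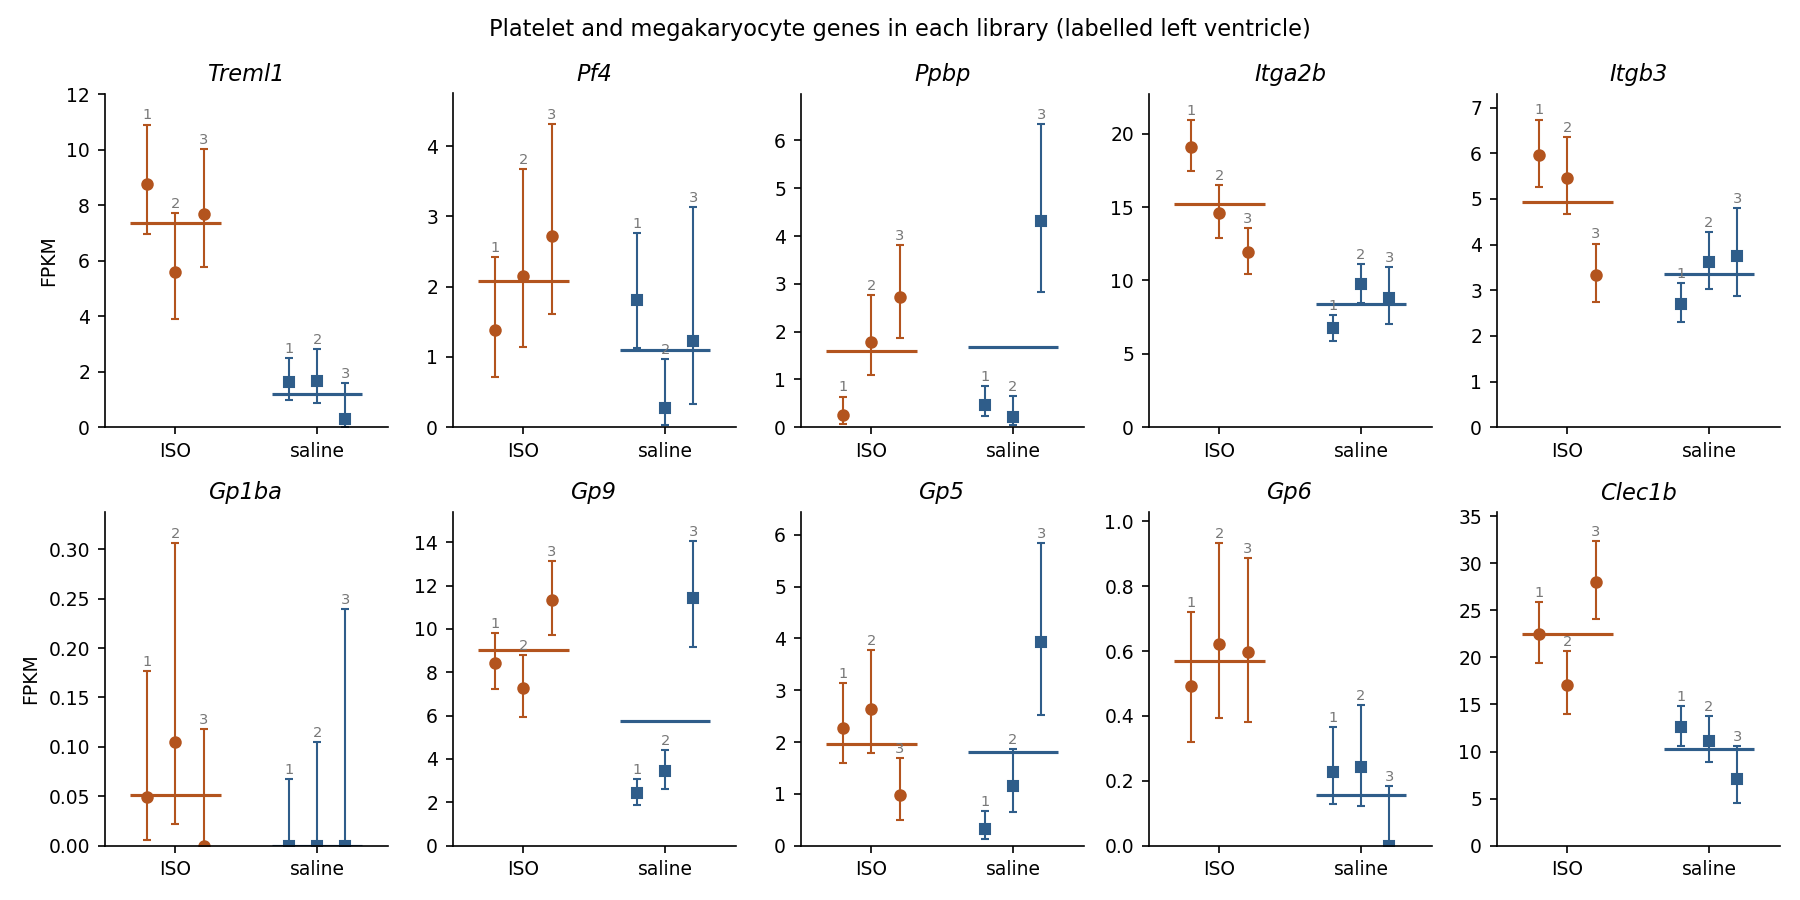
FPKM of the 10 members in each library, ISO (circles) left of saline (squares), with the replicate number above each point, 95% exact Poisson counting intervals as bars and the group mean as a line. Treml1, Itga2b, Gp6 and Clec1b have all ISO points above all saline points, whereas Ppbp, Gp9 and Gp5 have their highest point in saline 3.

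Itga2b and Itgb3 encode the alpha-IIb and beta-3 chains of the fibrinogen receptor. Itga2b, whose product is largely restricted to platelets and megakaryocytes (chromosome 11, 102453297 to 102469883), was at 19.1, 14.6 and 11.9 FPKM in ISO 1 to 3 and at 6.73, 9.73 and 8.80 FPKM in saline 1 to 3. The groups did not overlap, but the gap was narrow, and the counting intervals of ISO 3 (10.4 to 13.6 FPKM) and saline 2 (8.46 to 11.1 FPKM) did. Its log2 fold change was 0.77 (SE 0.27), with 0.61 without ISO 1 and 0.93 without ISO 3 as the extremes of leaving out 1 library. Itga2b was the best-measured member, with 974 reads in ISO and 523 in saline.

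Itgb3, which also pairs with the alpha-V chain on endothelial and other cells (chromosome 11, 104608000 to 104670476), was at 5.97, 5.46 and 3.34 FPKM in ISO 1 to 3 and at 2.70, 3.61 and 3.74 FPKM in saline 1 to 3. Here ISO 3 lay inside the saline range and the groups overlapped. The log2 fold change was 0.42 (SE 0.29). Itga2b was 3.20, 2.68 and 3.57 times as high as Itgb3 in ISO 1 to 3 and 2.49, 2.69 and 2.35 times in saline 1 to 3, so the alpha-IIb transcript was the more abundant chain in all 6 libraries. This ratio overlapped between the groups by a narrow margin, ISO 2 against saline 2.

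The GPIb-IX-V complex consists of GPIb-alpha, GPIb-beta, GPIX and GPV. Gp9, the GPIX subunit (chromosome 6, 87776131 to 87779786), was at 8.44, 7.26 and 11.3 FPKM in ISO 1 to 3 and at 2.41, 3.42 and 11.4 FPKM in saline 1 to 3. Saline 1 and 2 were below all ISO libraries and saline 3 was the highest of the 6. The log2 fold change of 0.79 (SE 0.49) became 1.35 without saline 3 and 0.41 without saline 1. Gp5, the GPV subunit (chromosome 16, 30307685 to 30310781), was at 2.28, 2.65 and 0.972 FPKM in ISO 1 to 3 and at 0.323, 1.15 and 3.93 FPKM in saline 1 to 3. The ISO range lay inside the saline range, and the log2 fold change of 0.25 (SE 0.53) was 0.76 without saline 3 and -0.18 without saline 1. It was 1.25 with limma-voom and 1.17 with quality weights, so the size of the Gp5 difference depended on the setting.

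Gp1ba encodes GPIb-alpha, the subunit that holds the von Willebrand factor site (chromosome 11, 70639102 to 70643986). It had 2, 3 and 0 reads in ISO 1 to 3 and 0 in each saline library. A count of 0 still allows 3 reads, which is 0.0962 FPKM in ISO 3 and 0.0548, 0.0857 and 0.195 FPKM in saline 1 to 3. The values of 0.0488 FPKM in ISO 1 and 0.105 FPKM in ISO 2 are both below the limit of saline 3, so a group difference of Gp1ba was not detectable at this depth. Gp1bb, the GPIb-beta subunit, was at 0.0650, 0.140 and 0.299 FPKM in ISO 1 to 3 and at 0, 0.114 and 0.173 FPKM in saline 1 to 3. It is named here because it completes the complex, chosen after its values were seen. Gp9 was the highest of the 4 subunit transcripts in all 6 libraries.

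The collagen receptor GPVI and CLEC-2 both signal through SYK. Gp6 (chromosome 7, 4362853 to 4397851) was at 0.491, 0.622 and 0.596 FPKM in ISO 1 to 3 and at 0.226, 0.243 and 0 FPKM in saline 1 to 3. The reads were 26, 23 and 24 in ISO and 16, 11 and 0 in saline, where the 0 of saline 3 allows up to 0.151 FPKM. All ISO libraries were above all saline libraries, though the counting intervals of ISO 1 (0.321 to 0.720 FPKM) and saline 2 (0.121 to 0.435 FPKM) overlapped. Gp6 was below the mean of 1 FPKM required for the fit and has no fitted fold change. Fcer1g, the Fc receptor gamma chain that GPVI needs for its signal and that myeloid cells also use, was at 90.2, 163 and 208 FPKM in ISO 1 to 3 and at 71.5, 86.3 and 55.3 FPKM in saline 1 to 3.

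Clec1b encodes CLEC-2, the platelet receptor for podoplanin, which some myeloid cells of the mouse also carry (chromosome 6, 129397297 to 129405413). It was at 22.5, 17.1 and 28.0 FPKM in ISO 1 to 3 and at 12.6, 11.1 and 7.08 FPKM in saline 1 to 3. The groups did not overlap, and the nearest libraries, ISO 2 and saline 1, had counting intervals of 13.9 to 20.7 FPKM and 10.6 to 14.8 FPKM that met. The log2 fold change was 1.07 (SE 0.30). Leaving out saline 3 gave 0.85, and the lowest value of the 13 alternatives was 0.59, under sample quality weights. In GENCODE M21 Clec1b shares 184 exon bases with Clec9a on the same strand. Clec9a lay between 0.825 and 2.16 FPKM in ISO and between 0 and 1.82 FPKM in saline, and its part in the Clec1b value was not tested.

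Pf4 (CXCL4) and Ppbp (the precursor of CXCL7) are chemokines of the alpha granule and neighbours on chromosome 5 (90772435 to 90773383 and 90768518 to 90770063). Pf4 was at 1.38, 2.14 and 2.73 FPKM in ISO 1 to 3 and at 1.81, 0.270 and 1.23 FPKM in saline 1 to 3. ISO 1 lay below saline 1, so the groups overlapped, and the values rest on only 12, 13 and 18 reads in ISO and 21, 2 and 4 reads in saline. The log2 fold change of 0.60 (SE 0.39) was 0.28 without saline 2 and 0.85 without saline 1.

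Ppbp was at 0.250, 1.79 and 2.71 FPKM in ISO 1 to 3 and at 0.468, 0.220 and 4.32 FPKM in saline 1 to 3. Each group held both low and high libraries, and saline 3 was the highest. Its log2 fold change of 0.15 (SE 0.67) was 0.81 without saline 3, -0.18 without ISO 3, -0.12 without saline 1, -0.25 without saline 2 and -0.027 after median-of-ratios scaling. The neighbours also differed from each other within libraries: Ppbp was 0.181, 0.835 and 0.995 times Pf4 in ISO 1 to 3 and 0.259, 0.814 and 3.53 times in saline 1 to 3.

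**Figure D2:**
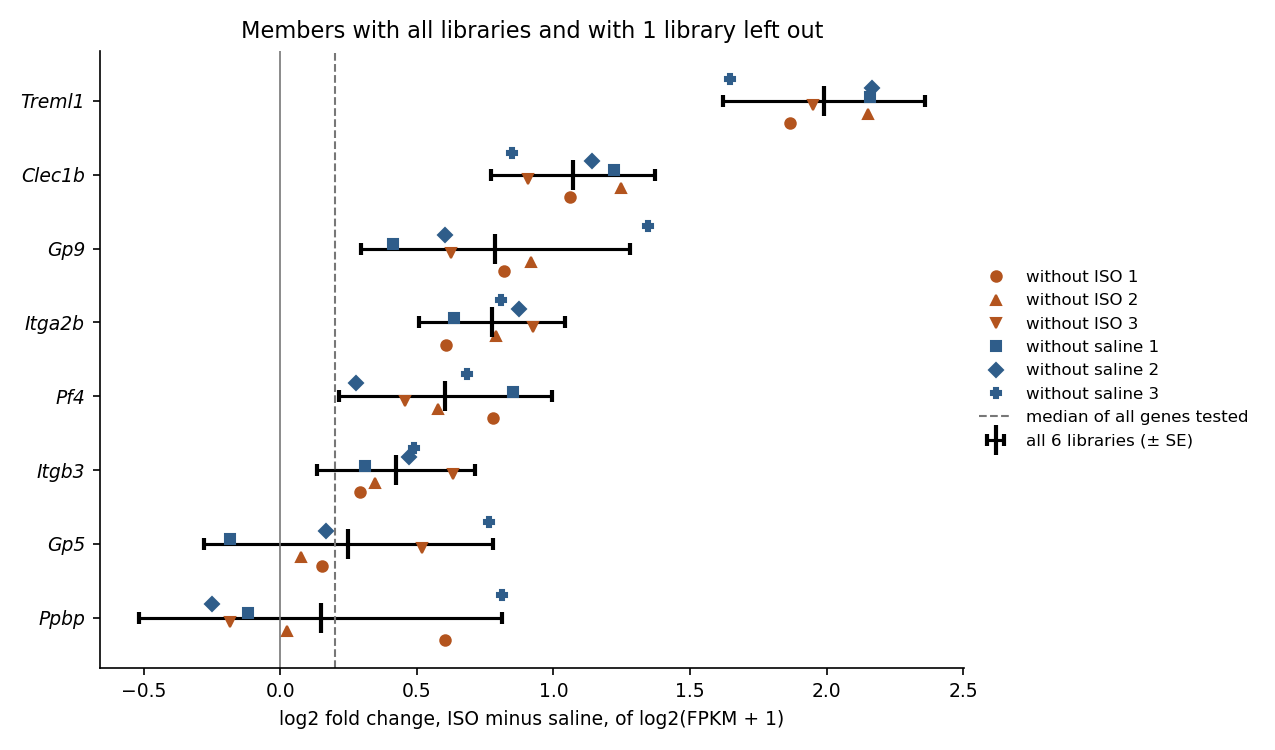
Log2 fold change (ISO minus saline, log2(FPKM + 1)) of the 8 members with a mean of at least 1 FPKM, with all 6 libraries (black mark with ± SE) and with each library left out in turn (coloured symbols); the dashed line is the median of all genes tested. Treml1 stays between 1.65 and 2.17, while Gp5 and Ppbp fall on both sides of 0.

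Across the 12269 genes tested, limma called 0 genes at an adjusted p of 0.05 (0%), and therefore 0 members. At an unadjusted p under 0.05, 604 genes were higher in ISO (4.92%) and 170 were lower (1.39%). These counts hung on single libraries, with 205 higher and 53 lower without ISO 2, 307 and 169 without ISO 3, and 812 and 418 without saline 3. Limma-voom on the recovered reads also called 0, while limma with sample quality weights called 768 genes (6.26%), 5 of them members, and 0 once saline 3 was left out. All 8 members that passed the filter had a log2 fold change above 0, where 68.1% of all genes tested had one. Every ISO library was above every saline library for 3 of the 8 (Treml1, Itga2b and Clec1b), and this held for 12.8% of all genes tested. It was the other way round for 0 members and for 3.72% of all genes. These counts of members, the 5 calls with quality weights included, follow from the comparison the genes were chosen on and support nothing further. The median log2 fold change was 0.69 over the 8 members, 0.53 over all 10 with no filter and 0.20 over all genes tested. The background itself moved with saline 3 and with the scaling. Without saline 3 the median of all genes was 0.063, with 59.1% above 0, and the median of the members was 0.81. After median-of-ratios scaling the median of all genes was 0.0055, with 50.5% above 0, and that of the members was 0.50, with 7 of 8 above 0. With quality weights the median of all genes was 0.050, and that of the members was 0.84.

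By level, the order of the members in ISO was Clec1b (22.5 ± 5.47 FPKM), Itga2b (15.2 ± 3.64), Gp9 (9.01 ± 2.10), Treml1 (7.35 ± 1.62), Itgb3 (4.93 ± 1.39), Pf4 (2.08 ± 0.674), Gp5 (1.97 ± 0.880), Ppbp (1.59 ± 1.24), Gp6 (0.570 ± 0.0693) and Gp1ba (SD, n = 3). Neighbours in this order had overlapping library ranges except Itga2b above Gp9, Itgb3 above Pf4 and Gp6 above Gp1ba. In saline the order was Clec1b (10.3 ± 2.84 FPKM), Itga2b (8.42 ± 1.54), Gp9 (5.75 ± 4.93), Itgb3 (3.35 ± 0.567), Gp5 (1.80 ± 1.89), Ppbp (1.67 ± 2.30), Treml1 (1.19 ± 0.778), Pf4 (1.10 ± 0.778), Gp6 (0.156 ± 0.136) and Gp1ba (SD, n = 3), and the only neighbours without overlap were Pf4 and Gp6. By group mean Treml1 was thus the fourth member in ISO and the seventh in saline. The saline place hung on saline 3, where Treml1 was at 0.288 FPKM on 1 read, Gp5 at 3.93 FPKM and Ppbp at 4.32 FPKM. In saline 1 and saline 2 Treml1 was above both Gp5 and Ppbp. The set was chosen knowing that Treml1 was higher in ISO, so its place in the order supports nothing further. The order depends on the gene lengths behind the FPKM. The lengths implied by the deposited values were 2779 bases for Gp9, 2166 for Ppbp, 5552 for Gp1ba and 1170 for Clec1b. The exon bases in GENCODE M21 were 881, 1083, 2718 and 5103. Itga2b (3437 against 5454) and Pf4 (1176 against 721) differed as well, and Gp6 (7173 against 5900) and Treml1 (1250 against 1402) less so. Gp5 (2199 against 2197) and Itgb3 (5968 against 5901) were close. A comparison of 1 gene between libraries is free of this.

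Summed over the 10 members, the level was 69.2, 57.3 and 69.3 FPKM in ISO 1 to 3 and 28.9, 31.4 and 40.8 FPKM in saline 1 to 3. The make-up of that sum differed between libraries. Treml1 made up 12.7%, 9.75% and 11.1% of it in ISO 1 to 3 and 5.62%, 5.25% and 0.706% in saline 1 to 3, and Gp9 reached 28.0% in saline 3, against 8.35% in saline 1. Treml1 was 0.459, 0.382 and 0.646 times Itga2b in ISO 1 to 3 and 0.241, 0.169 and 0.0327 times in saline 1 to 3. This ratio to another platelet transcript of the same library did not overlap between the groups. Treml1 was known to be higher in ISO when the set was chosen, so this separation supports nothing further. The saline 3 ratio rests on 1 Treml1 read. Clec1b was 1.18, 1.17 and 2.35 times Itga2b in ISO 1 to 3 and 1.87, 1.14 and 0.804 times in saline 1 to 3, with overlap.

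**Figure D3:**
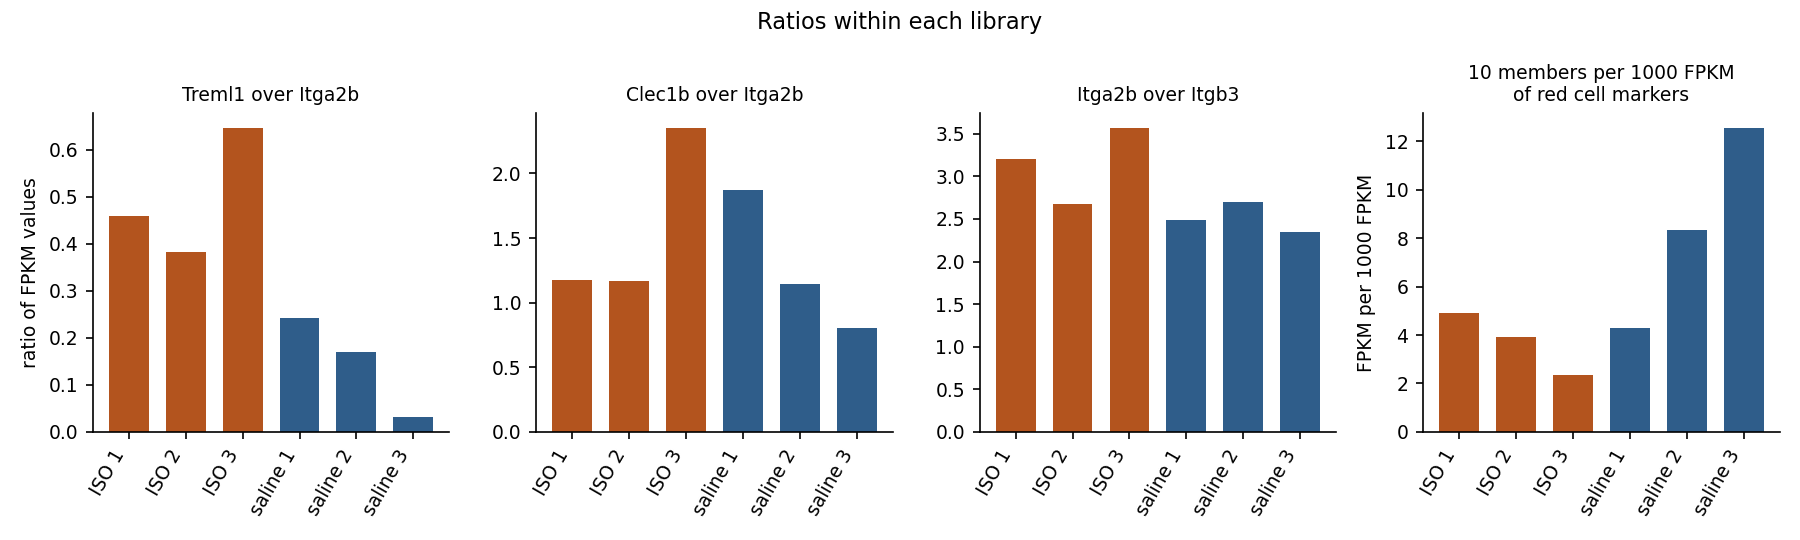
Ratios within each library, ISO libraries left of saline libraries: FPKM of Treml1 and of Clec1b over Itga2b, of Itga2b over Itgb3, and the summed FPKM of the 10 members per 1000 FPKM of red cell markers. Treml1 over Itga2b is 0.382 or more in ISO and 0.241 or less in saline, and the other 3 ratios overlap between the groups. Treml1 was known to be higher in ISO when the set was chosen.

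The members did not vary as a unit. Saline 3 held the highest Ppbp, Gp9 and Gp5 of the 6 libraries together with the lowest Treml1 and Clec1b and no Gp6 reads. ISO 1 held the highest Treml1, Itga2b and Itgb3, and ISO 3 the highest Pf4 and Clec1b. Likeness to Treml1 was measured as the root mean square difference between log2(FPKM + 1) profiles over the 6 libraries, each centred on its own mean. Treml1 was known to be higher in ISO when the set was chosen, and its saline 3 value rests on 1 read. Any gene with a like step between the groups lies near, so the positions below support nothing further. Among the members, Clec1b was nearest at 0.50 (position 72 of 12268 other genes), followed by Itga2b at 0.76 (position 1577), while Ppbp was farthest at 1.49 (position 11364). The 5 genes outside the set with the nearest profiles were Fam46c (0.27), Adamtsl2 (0.29), Evi2a (0.30), Postn (0.32) and Hist1h4i (0.34). Fam46c was at 3.47, 2.61 and 3.55 FPKM in ISO 1 to 3 and at 0.896, 0.795 and 0 FPKM in saline 1 to 3. Hist1h4i is one of many near-identical histone H4 copies, so its reads are uncertain.

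Further platelet and megakaryocyte genes were described with 4 lists of 71 genes, of which 57 passed the filter. The lists were chosen with earlier results of these data known, and some of their genes are also expressed by other cells. Their counts are therefore a description and support nothing further. Of the 57 genes, 52 had a log2 fold change above 0 and 5 below, with a median of 0.41. None passed at an adjusted p of 0.05 with limma. At an unadjusted p under 0.05 there were 14 higher and 0 lower, against 4.92% and 1.39% of all genes tested. The groups did not overlap for 20 genes, all with ISO above saline. Over all genes tested, 68.1% were above 0 and 12.8% had every ISO library above every saline library. Without saline 3, 47 of the 57 were above 0 with a median of 0.27, against 59.1% of all genes. After median-of-ratios scaling 43 were, with a median of 0.22, against 50.5% of all genes. With sample quality weights 43 were as well, with a median of 0.29, against 56.1% of all genes.

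Among surface receptors, 10 of 12 tested genes were above 0, against 68.1% of all genes (median 0.52, and 0.21 without saline 3). Without saline 3, 9 of the 12 were above 0 (59.1% of all genes), and after median-of-ratios scaling 8 were (50.5% of all genes). With sample quality weights 6 of the 12 were above 0 with a median of 0.13, against 56.1% and 0.050 for all genes. The count of this list above 0 thus depended on the setting. For 4 of the 12 every ISO library was above every saline library, against 12.8% of all genes. P2ry12, the ADP receptor that antiplatelet drugs block, was at 5.19, 4.95 and 10.5 FPKM in ISO 1 to 3 and at 3.33, 4.48 and 3.48 FPKM in saline 1 to 3. Selp, the P-selectin of platelet granules and endothelium, was at 2.25, 5.14 and 7.87 FPKM in ISO 1 to 3 and at 2.15, 1.06 and 1.36 FPKM in saline 1 to 3. For both genes the groups did not overlap, and neither passed (limma, adjusted p = 0.699 for each). Pear1, a platelet contact receptor that endothelium also expresses, averaged 34.8 ± 2.78 FPKM in ISO and 24.5 ± 5.72 FPKM in saline, and Cd9, a tetraspanin of many cells, 199 ± 12.7 FPKM in ISO and 141 ± 41.7 FPKM in saline (SD, n = 3 each).

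All 18 signalling genes were above 0, against 68.1% of all genes (median 0.47), and 7 of them had every ISO library above every saline library, against 12.8% of all genes. Without saline 3, 16 of the 18 were above 0 (59.1% of all genes), and after median-of-ratios scaling 15 were (50.5% of all genes). Stx11, a SNARE of platelet secretion, averaged 6.20 ± 0.675 FPKM in ISO and 2.02 ± 0.697 FPKM in saline (SD, n = 3 each; log2 fold change 1.27, SE 0.27). Fermt3, the kindlin that activates integrins in blood cells, averaged 19.2 ± 7.08 FPKM in ISO and 7.94 ± 1.83 FPKM in saline. Lcp2, the adaptor SLP-76, averaged 10.1 ± 4.74 FPKM in ISO and 2.17 ± 0.826 FPKM in saline. These genes are shared with leukocytes. ISO 1 was the lowest ISO library for Stx11, Fermt3, Lcp2 and Fcer1g. Among the members, ISO 1 was also the lowest ISO library for Pf4, Ppbp and Gp6, and it was the highest for Treml1, Itga2b and Itgb3.

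In the granule and enzyme list 14 of 16 tested genes were above 0, against 68.1% of all genes (median 0.49, and 0.18 without saline 3). Mmrn1, multimerin, a carrier of factor V in platelets that endothelium also makes, was at 3.48, 4.52 and 5.49 FPKM in ISO 1 to 3 and at 1.40, 0.787 and 0.777 FPKM in saline 1 to 3, with a log2 fold change of 1.47 (SE 0.29). Vwf, von Willebrand factor of endothelium and platelets, averaged 46.1 ± 8.83 FPKM in ISO and 27.1 ± 4.998 FPKM in saline. Srgn, the proteoglycan that packs granules in blood cells, averaged 32.8 ± 11.1 FPKM in ISO and 13.4 ± 5.68 FPKM in saline, and Thbs1, thrombospondin 1, 22.6 ± 9.60 FPKM in ISO and 9.10 ± 3.51 FPKM in saline (SD, n = 3 each). The groups of these 4 genes, named for the smallest p in the list, did not overlap. Every ISO library was above every saline library for 6 of the 16, against 12.8% of all genes.

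In the list of megakaryocyte transcription factors and cytoskeleton 10 of 11 tested genes were above 0, against 68.1% of all genes (median 0.30, and 0.25 without saline 3). For 3 of the 11 every ISO library was above every saline library, against 12.8% of all genes. Tubb1, the beta-1 tubulin of the platelet marginal band, was at 7.98, 6.20 and 4.71 FPKM in ISO 1 to 3 and at 3.997, 3.72 and 0.359 FPKM in saline 1 to 3, and its groups did not overlap (log2 fold change 1.18, SE 0.53, and 0.56 without saline 3). Tal1, a factor of blood and endothelial cells, averaged 6.59 ± 0.116 FPKM in ISO and 4.01 ± 2.29 FPKM in saline, with a log2 fold change of 0.71 that was 0.32 without saline 3. Cdc42 and Myh9, used by most cells, had log2 fold changes of 0.32 and 0.24. Gata1 and Nfe2, factors of the megakaryocyte and red cell lineages named after their values were seen, were below the filter. Gata1 was at 1.42, 1.20 and 0.254 FPKM in ISO 1 to 3 and at 0.0963, 0.377 and 0 FPKM in saline 1 to 3, and Nfe2 at 0.676, 1.18 and 1.46 FPKM in ISO 1 to 3 and at 0.253, 0.509 and 0.128 FPKM in saline 1 to 3. Gata1 had 38 reads in ISO and 7 in saline, and Nfe2 had 54 reads in ISO and 17 in saline. Other factors of the list did not show such a difference: Gfi1b had 2 reads in ISO and 3 in saline, and the log2 fold changes were 0.0012 for Zfpm1, -0.030 for Mef2c, 0.27 for Runx1 and 0.30 for Fli1.

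**Figure D4:**
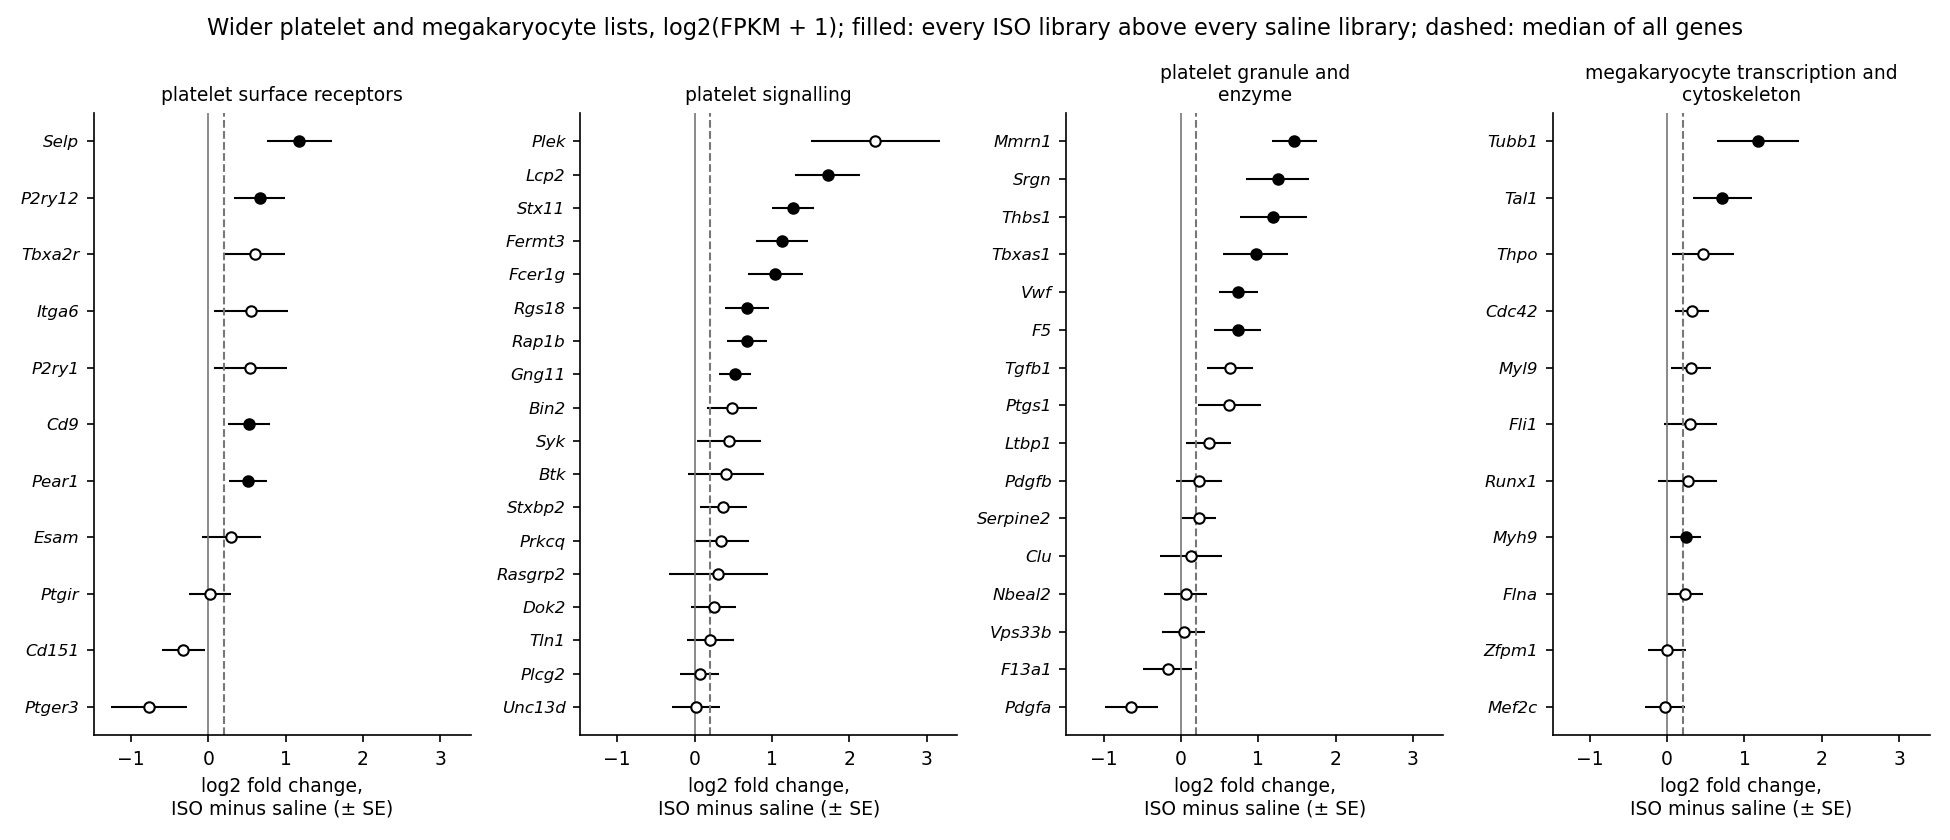
Log2 fold change (ISO minus saline, log2(FPKM + 1), ± SE) of 56 of the 57 tested genes in the 4 wider lists; filled points mark genes with every ISO library above every saline library (20 genes), and the dashed line is the median of all genes tested (0.20). Of the points, 51 lie above 0 and 5 below.

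Markers of other cells were summed in the same libraries. Sums of red cell, macrophage, fibroblast and ventricular cardiomyocyte markers did not overlap between the groups. Those of endothelial, neutrophil, atrial and T, B and NK cell markers did. The counts of higher markers compare group means over all markers found. Of all genes tested, 68.1% had a log2 fold change above 0. The 11 red cell markers found in the table summed to between 14095 and 29597 FPKM in ISO and between 3255 and 6706 FPKM in saline, and 10 of them had a higher mean in ISO. Set against this sum, the 10 platelet members came to 4.91, 3.93 and 2.34 FPKM per 1000 FPKM of red cell markers in ISO 1 to 3 and to 4.30, 8.33 and 12.5 in saline 1 to 3. These ratios overlapped between the groups, and the ISO values lay at the low end. Against the endothelial sum the members came to 6.02%, 5.49% and 6.95% in ISO 1 to 3 and to 2.81%, 3.45% and 9.43% in saline 1 to 3, so saline 1 and 2 lay below all ISO libraries and saline 3 above them. Hba-a1, an alpha-globin chain, averaged 9592 ± 5867 FPKM in ISO and 2209 ± 859 FPKM in saline, and Hbb-bs, a beta-globin chain, 4514 ± 212 FPKM in ISO and 908 ± 530 FPKM in saline (SD, n = 3 each); both have near-identical copies. Macrophage markers (12 of 12 higher) summed to between 1060 and 2020 FPKM in ISO and between 501 and 939 FPKM in saline. Endothelial markers (11 of 12 higher) summed to between 998 and 1150 FPKM in ISO and between 433 (saline 3) and 1028 FPKM in saline, or between 910 and 1028 FPKM without saline 3, and fibroblast markers (6 of 6 higher) to between 1311 and 1323 FPKM in ISO and between 543 and 890 FPKM in saline.

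Neutrophil markers (8 of 12 higher, 1 at 0 in all libraries) summed to between 39.7 and 154 FPKM in ISO and between 39.4 and 107 FPKM in saline. T, B and NK cell markers (9 of 12 higher) had sums between 16.3 and 63.7 FPKM in ISO and between 14.4 and 25.5 FPKM in saline. Ventricular cardiomyocyte markers (0 of 10 higher) summed to between 13047 and 22525 FPKM in ISO and between 30821 and 47977 FPKM in saline, and atrial ones (3 of 6 higher) to between 15141 and 18055 FPKM in ISO and between 10430 and 26381 FPKM in saline. The part of blood content, of the other cell types and of the make-up of the tissue piece in the values of the platelet genes was not tested.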

How the data were processed

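RNA-seq of tissue labelled as left ventricle was deposited by the authors as FPKM for 21989 gene symbols. Tools named in the submitters' processing notes, with no role or order, were HISAT2 2.1.0 and HTSeq 0.7.2, then Cufflinks 2.2.1, and also fastp 0.20.0, DESeq and CASAVA 1.8. The notes name the build GRCm38. Annotation release and strand setting are not given in the sources used here.

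FPKM depends on the gene length and on the library total, so a rise of abundant genes lowers all others. Whole reads were recovered from the steps between low FPKM values, to a tolerance of 0.0001, for all 16816 genes detected in 2 or more libraries (100%). A gene whose reads share a divisor can be recovered too low. A simulation of 17029 genes returned the exact reads for 98.3% of the genes recovered. A single read on 1 kilobase was worth 0.101 to 0.360 FPKM.

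Group differences were fitted with limma 3.58.1 (R 4.3.3, mean-variance trend) to log2(FPKM + 1) of the deposited values. Genes needed a mean of 1 FPKM, which left 12269, and Benjamini-Hochberg adjusted p-values were held to 0.05. This scale understates low genes. In simulated data of that size the fit called 62% of 100 genes altered 4-fold, and it called 89% of 100 genes altered 16-fold. The altered genes were drawn from higher genes only, and no library was simulated as standing apart. These shares therefore do not cover low genes such as Pf4, Ppbp and Gp5, nor the spread of saline 3. Python 3.11.15, pandas 2.3.3 and scipy 1.17.1 did the remaining steps.

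The closest pair within a group, ISO 1 and ISO 2, had a median chi-square over genes 4.47 times that of sampling alone, so all 6 libraries were counted separately. The text names all members, the 4 genes with the smallest p in each wider list, the 5 profiles nearest to Treml1, and the sums and up to 2 top genes of marker lists. Gata1, Nfe2, Gp1bb, Clec9a, Plek, Ptger3, Gfi1b, Zfpm1, Mef2c, Runx1, Fli1, Myl2 and Myl7 were named after their values were seen. A gene of the wider lists is counted there but not reported here. The members and lists were chosen with earlier results of these data known. Alternatives were another pseudocount, no filter, median-of-ratios scaling, weights by library quality, leaving out single libraries, a block for the replicate number and limma-voom.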

Additional observations from a re-analysis of the deposited data

How the results depend on the processing

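The count of 0 genes past the adjusted threshold (774 at an unadjusted p under 0.05) held with a pseudocount of 0.1, no filter, median-of-ratios scaling, limma-voom and the replicate block. With sample quality weights limma called 768 genes (6.26%), among them 5 members (Treml1, Itga2b, Itgb3, Gp9 and Gp5) and 8 of the 57 wider genes (7 higher, 1 lower, Ptger3). These weights gave saline 3 a weight of 0.0772, and with saline 3 left out as well (added after the data were seen) they called 0. The calls of members follow from the comparison the set was chosen on and are no test of it. Leaving out 1 library gave 0 to 16 genes and 0 to 1 wider gene; both upper values are without ISO 1, and the wider gene is Plek, at 10.4 FPKM in ISO 1 against 99.1 and 109 FPKM in ISO 2 and 3. The member median of 0.69 was 0.53 to 0.81 with 1 library left out, 0.89 with a pseudocount of 0.1 and 1.01 with limma-voom. The cause was not tested. The replicate block left the member median at 0.69. The replicate numbers did not pair the libraries: the deviations of same-numbered libraries correlated at 0.013, -0.15 and -0.025, and ISO 1, ISO 2 and ISO 3 correlated best with other numbers. Treml1, Pf4, Itga2b, Itgb3, Gp9 and Clec1b stayed above 0 under all 13 alternatives, Gp5 in all but 1 and Ppbp in all but 4. Depth limits Gp1ba, Gp6, Pf4 and Ppbp, whose libraries hold 0 to 33 reads each. It also limits Gp5, with 7 to 37 reads per library, and Treml1 in saline, with 20, 13 and 1 reads.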
